A study of Mus musculus with 6 samples.

Results

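The genes of glycolysis and of the response to low oxygen were followed in Kupffer cells, which are macrophages resident in liver sinusoids, with and without Trem2. The 36 genes were taken by symbol from a deposited table of 54532 genes. They were 15 glycolytic enzymes, 6 glucose or lactate transporters and flux regulators, the oxygen-regulated factor Hif1a, and 14 targets of that factor that are not glycolytic enzymes. Aldoa is listed as 2 rows, so the 36 symbols fill 37 rows, and the second Aldoa row held 1 to 5 reads per library. RNA was sequenced from sorted Kupffer cells of male mice, 3 libraries from Trem2-deficient mice (Trem2_KO, Trem2-/-) and 3 from their wild-type littermates (WT). Mice of both groups were 8 weeks old when a high fat diet began and were fed it for 8 weeks, so no group on another diet enters the comparison. The labels name no promoter or Cre and do not say which cells other than Kupffer cells lack Trem2.

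Glycolysis splits glucose into pyruvate in the cytosol, and pyruvate is either reduced to lactate and exported or enters the mitochondria. Macrophages raise this pathway when they are activated. HIF-1, a pair of the HIF-1 alpha protein with ARNT, is kept low in oxygen by prolyl hydroxylases and the VHL ubiquitin ligase; when stable, it binds a short core motif and raises both glycolytic genes and genes for vessel growth, mitophagy and collagen hydroxylation. HIF-1 alpha is regulated largely at the level of the protein, which was not measured here.

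Promoter stretches are shown first because HIF-1 is known to bind a short core motif, which many but not all of the members carried near an annotated start. RefSeq promoter windows of GRCm38.p6, from 250 bases before to 50 bases after each annotated start, were matched for 33 members (Ero1l through its synonym), and not for Slc2a3, Bnip3l and Ndrg1. The core motif ACGTG, searched on both strands, was found in 24 of the 33 (72.7%), against 21.8% of 27025 genes with a window. The variant GCGTG was found in 22 of the 33 (66.7%), against 35.2%. A match is a run of letters and not a binding site, ACGTG also lies within the CACGTG motif of other factors, and many members were listed because they are known HIF targets. Each stretch below has 25 bases, is read 5′ to 3′ on the strand that carries the motif, and has ACGTG in capitals. The first 4 belong to genes that were higher in Trem2_KO, the next 4 to genes that were lower, and the last to Ldha, which was not called:
Vegfa: ttgctctctgACGTGggcacgcact
Slc2a1: cccgccccggACGTGctccccaggc
Pfkfb3: ccttctctccACGTGaaagggggct
Pkm: gagtccgcggACGTGactagaatgc
P4ha1: agccctcgctACGTGcgctctgtca
Hif1a: gctgagagcaACGTGggctggggtg
Hk3: gaactaggcaACGTGtcaaaatgta
Aldoa: ccccgctaggACGTGactcgagcca
Ldha: agcccagcggACGTGcgggaaccca
A gene can have several RefSeq starts, and the match nearest to any of them is shown. The Vegfa stretch (chr17:46025360-46025384, plus strand) lies 209 bases before a RefSeq start, that of Slc2a1 (chr4:119108699-119108723, plus strand) 34 bases before, and that of P4ha1 (chr10:59323270-59323294, minus strand) 14 bases before. Vegfa had 2 windows, 1 of them with ACGTG, and its stretch lies inside the gene (46016993 to 46032369, minus strand). The stretches of Pfkfb3, Pkm, Hif1a, Aldoa and Ldha also lie within the deposited span of their gene, not before its outer 5′ end. The Hk3 stretch (chr13:55021527-55021551, plus strand) lies 154 bases before its start and that of Ldha (chr7:46845760-46845784, minus strand) 32 bases before. The motif was present whichever way a gene went. ACGTG was in the windows of 4 of 6 higher, 6 of 7 lower and 13 of 19 not called members, and in those of 10 of 15 enzymes and 10 of 12 HIF targets with a window.

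Library totals ran from 15799351 to 17135603 counts, and levels are given as CPM, the counts relative to library size after TMM scaling. A gene with no count in a library could still have up to 3 counts, which is 0.173 to 0.192 CPM. Trem2 (ENSMUSG00000023992, chromosome 17, 48346401 to 48354147, GRCm38) was at 84.2 to 90.0 CPM in WT and 14.5 to 17.3 CPM in Trem2_KO, as labelled in all 6 libraries. The labels do not name the deleted part of Trem2, so its remaining reads cannot be placed. Kupffer cell markers were abundant in both groups, with a summed level of 45628 to 46860 CPM in WT and 41184 to 41874 CPM in Trem2_KO, and 8 of 10 were called lower. Of all 13776 tested genes 15.3% were called higher and 15.1% lower. Of other cell types, 10 of 12 sinusoidal endothelial markers were called higher and 1 lower, 4 of 10 monocyte markers higher and 2 lower, 1 of 13 hepatocyte markers higher and 8 lower, and 2 of 6 tested erythroid markers (8 listed) higher and 0 lower. Their summed levels were 1994 to 2012 against 1965 to 1974 CPM (endothelial), 559.5 to 573.8 against 515.5 to 541.5 CPM (monocyte), 1673 to 1736 against 1390.2 to 1433 CPM (hepatocyte) and 31.3 to 36.2 against 43.4 to 44.3 CPM (erythroid), WT first. The endothelial sum was carried largely by Cdh5 (mean 1255 CPM in WT and 1127 in Trem2_KO), the 1 marker called lower. Treml4, a listed monocyte marker, lies 0.071 Mb from Trem2, and the part of that position in its fall was not tested. The monocyte sum was carried largely by Treml4 (mean 436 CPM in WT and 385 in Trem2_KO), 1 of the 2 called lower. These sums therefore do not give the direction of the other endothelial and monocyte markers. Of the remaining lists, 1 of 5 tested neutrophil markers (10 listed) was called higher and 1 lower, and 0 of 6 tested B cell markers (7 listed) higher and 2 lower. Of 5 tested dendritic (6 listed) and 6 tested stellate cell markers (7 listed) 1 each was called higher and 0 lower. Only 2 of 8 T and NK cell markers were tested, with 0 called either way, and 0 of 4 cholangiocyte markers were tested. The neutrophil gene Ly6g was at 0 in all 6 libraries. The part of these cells in the results that follow was not tested, and in bulk RNA fewer cells of a type and less RNA per cell cannot be told apart.

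The members did not move as a block. Of the 36, 35 passed the filter on low counts (Egln3 did not), and 7 were called higher and 7 lower in Trem2_KO by edgeR at an adjusted p under 0.05, while 21 were not called. That is 40.0% of the tested members, beside 30.3% of all 13776 tested genes (15.3% higher and 15.1% lower). In 7 members every Trem2_KO library lay above every WT library and in 9 every one lay below, 45.7% in all, beside 41.6% of all tested genes (20.9% above and 20.7% below). The median log2 change of the members was 0.04, beside -0.01 for all tested genes, and the median absolute change was 0.13, beside 0.16. Of the 14 called members, 12 changed by less than 0.5 on the log2 scale; Vegfa and Slc2a3 changed by more. Without WT replicate 3 or Trem2_KO replicate 1 only 3 members were called higher, and without Trem2_KO replicate 3 only 4 were. DESeq2 called 10 of the 14, and not Hk1 (adjusted p = 0.0633), Pdk1 (0.0797), Hif1a (0.0865) or Slc2a1 (0.123).

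**Figure D1:**
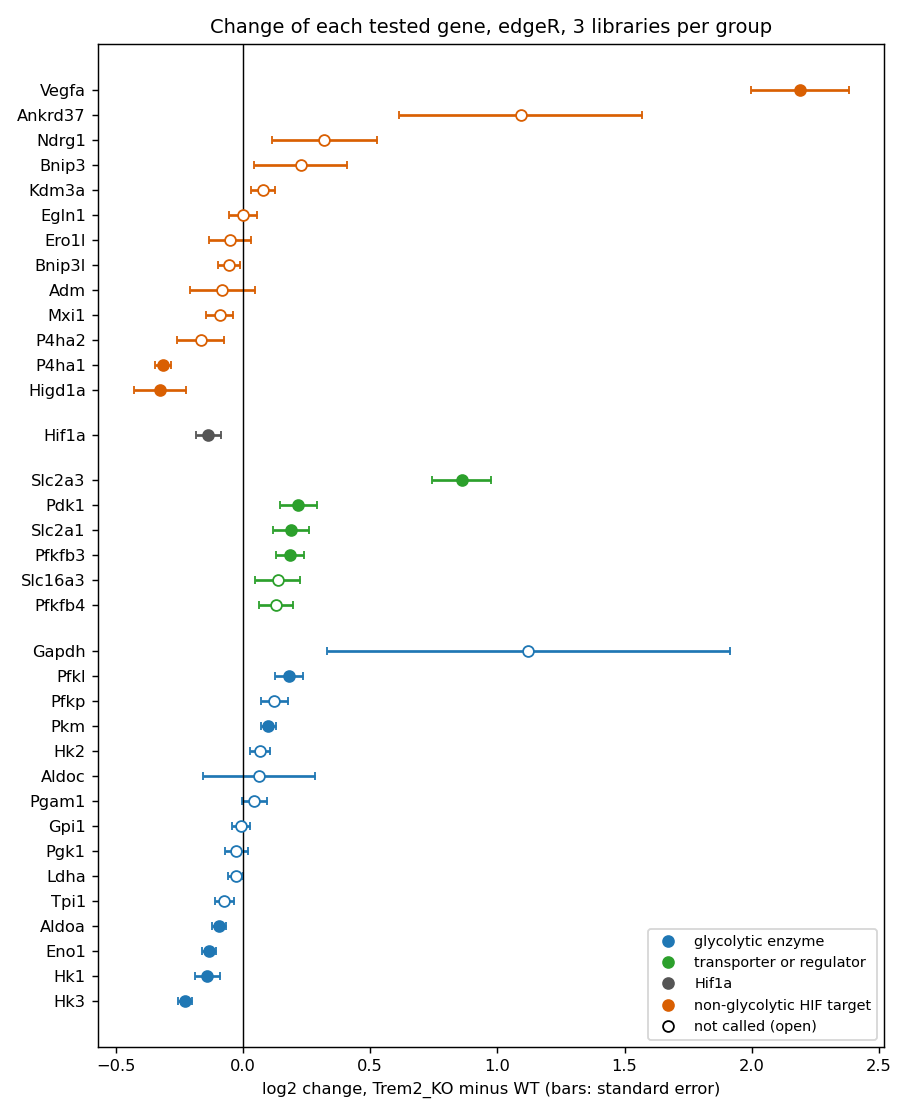
Log2 change (Trem2_KO minus WT) with its standard error for each of the 35 tested genes, by group, with filled points for called genes. Most points lie close to 0; Vegfa at 2.19 and Slc2a3 at 0.86 are the filled points farthest from it, and Gapdh at 1.12 has a wide bar because 1 library was high.

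Glycolytic enzymes were compared with the non-glycolytic HIF targets. Since HIF-1 raises genes of both kinds, this contrast cannot separate the pathway itself from the wider oxygen response. The enzymes had 2 of 15 called higher (Pfkl and Pkm), 4 lower (Hk1, Hk3, Aldoa and Eno1) and 9 not called, with a median log2 change of -0.01. Of 13 tested HIF targets 1 was called higher (Vegfa), 2 lower (P4ha1 and Higd1a) and 10 not called, with a median of -0.05. The medians differed by -0.0433 (HIF targets minus enzymes), and the difference was not tested. A related value was taken in each library, the difference of group medians of log2 CPM relative to the WT mean. It ran from -0.0692 to 0.0161 in WT and from -0.0662 to 0.0184 in Trem2_KO, with an SD of 0.0436 between libraries of 1 group. The 2 ranges overlapped almost fully. Leaving out 1 library moved the difference between the medians of log2 changes from -0.0819 (without WT replicate 1) and -0.0678 (without Trem2_KO replicate 3) to 0.0279 (without WT replicate 3) and 0.0504 (without Trem2_KO replicate 1), so its sign was not stable. With the transporters and regulators counted among the enzymes it was -0.117. The count of enzymes called higher was 0 without either of these libraries and 1 without Trem2_KO replicate 3. The transporters and regulators had 4 of 6 called higher (Slc2a1, Slc2a3, Pfkfb3 and Pdk1) and 0 lower. Of these 4, only Slc2a3 kept its call without any single library. Their median was 0.19, with all 6 estimates above 0, and as a set they were not tested against the enzymes. Called genes made up 66.7% of the transporters and regulators, 40% of the enzymes and 23.1% of the tested HIF targets, beside 30.3% of all tested genes.

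**Figure D2:**
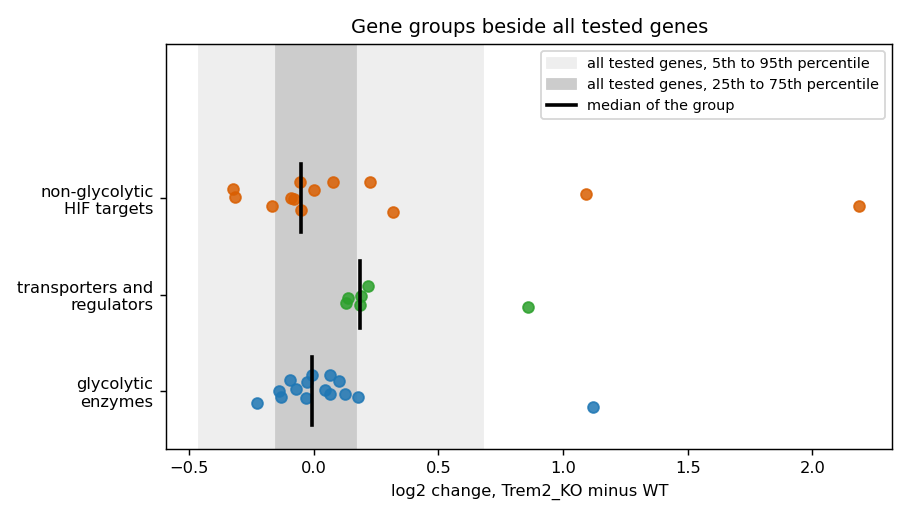
Log2 changes of the tested genes of each group (points, spread vertically only for visibility) with the group median (black line), over the range of all 13776 tested genes (grey bands). The enzyme and HIF target medians of -0.01 and -0.05 lie within the inner band, and the median of the transporters and regulators, 0.19, lies just above its upper edge of 0.17.

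Glucose enters through the facilitative transporters Slc2a1 (GLUT1) and Slc2a3 (GLUT3). Slc2a3 (ENSMUSG00000003153, chromosome 6, 122727809 to 122801640) was at 10.7, 8.68 and 7.15 CPM in WT and 15.7, 17.1 and 15.4 CPM in Trem2_KO. All 3 knockout libraries were above all 3 WT libraries, and the gene rose by 0.86 on the log2 scale (SE 0.116, 1.81-fold, edgeR adjusted p = 3.04e-08). Slc2a1 was at 30.4, 35.3 and 29.7 CPM in WT and 36, 33.1 and 39.6 CPM in Trem2_KO. The groups overlapped, since WT replicate 2 lay above Trem2_KO replicate 2; its rise of 0.19 (SE 0.0714, adjusted p = 0.0389) was lost without WT replicate 1 or 3 or Trem2_KO replicate 1 or 3 (adjusted p 0.0729 to 0.268), and also with DESeq2 (adjusted p = 0.123), limma-voom (0.0613) or no filter (0.0574). Per gene length Slc2a1 remained the more abundant of the pair, at 9.04 ± 0.875 FPKM in WT and 10.3 ± 0.927 in Trem2_KO (SD, n = 3), against 1.22 ± 0.247 and 2.21 ± 0.125 FPKM for Slc2a3.

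Hexokinases trap glucose as glucose 6-phosphate, and of their 3 genes 2 were called lower and 1 was not called. Hk3 (ENSMUSG00000025877, chromosome 13, 55005985 to 55021385), the form typical of myeloid cells, was at 535, 532 and 522 CPM in WT and 453, 453 and 450 CPM in Trem2_KO. The 2 groups were tight and apart, a fall of 0.23 on the log2 scale (SE 0.0276, adjusted p = 1.86e-09). This call was lost when every gene was given a coefficient of variation of 0.1 or 0.2. Hk1 was at 78.2, 81.9 and 85.4 CPM in WT and 76.1, 74.4 and 72.2 CPM in Trem2_KO. The libraries of Hk1 did not overlap, but the fall of 0.14 (SE 0.0479, adjusted p = 0.0209) was lost without WT replicate 3, Trem2_KO replicate 2 or Trem2_KO replicate 3 (adjusted p 0.0592 to 0.107). Hk2, at 132 to 144 CPM in WT and 141 to 148 CPM in Trem2_KO, was not called (log2 change 0.07, adjusted p = 0.211). Per gene length Hk3 was the most abundant hexokinase, at 143 FPKM in WT and 122 in Trem2_KO, with Hk2 at 22.9 and 23.9 and Hk1 at 9.56 and 8.66.

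Phosphofructokinase commits sugar to glycolysis, and its liver form Pfkl was at 54.3, 57.6 and 52.0 CPM in WT and 63.7, 57.5 and 64.3 CPM in Trem2_KO. Trem2_KO replicate 2 lay within the WT range, and the rise of 0.18 (SE 0.055, adjusted p = 0.01) was lost without WT replicate 3, Trem2_KO replicate 1 or Trem2_KO replicate 3 (adjusted p 0.0561 to 0.0731). The platelet form Pfkp was not called: its libraries lay at 59.1 to 61.7 CPM in WT and 62.0 to 71.0 in Trem2_KO, without overlap, with a log2 change of 0.12 (adjusted p = 0.0739, and 0.0466 without Trem2_KO replicate 2). Pfkp shares 748 exon bases with Pitrm1 on the other strand, and since the strand setting of the counting is not known, reads there cannot be told apart. Pfkfb3 makes fructose 2,6-bisphosphate, the strongest activator of phosphofructokinase, and was at 48.8, 48.7 and 50.5 CPM in WT and 53.2, 57.8 and 57.2 CPM in Trem2_KO. All knockout libraries were higher, a rise of 0.18 (SE 0.055, adjusted p = 0.0076) that was just lost without Trem2_KO replicate 2 (adjusted p = 0.0519). Its paralog Pfkfb4 was at 31.2 to 36.4 CPM in WT and 34.9 to 39.6 in Trem2_KO, with overlap, and was not called (0.13, adjusted p = 0.142).

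Aldolase, enolase and triose phosphate isomerase act in the middle and lower pathway. Eno1 (ENSMUSG00000063524, chromosome 4, 150236721 to 150248879) was at 557, 561 and 557 CPM in WT and 498, 511 and 518 CPM in Trem2_KO. Every knockout library was lower, a fall of 0.13 (SE 0.0275, adjusted p = 0.000128). That call was lost when every gene was given a coefficient of variation of 0.1 or 0.2. Aldoa was at 549, 576 and 554 CPM in WT and 526, 521 and 525 CPM in Trem2_KO. The groups did not overlap, and the fall of 0.10 (SE 0.0277, adjusted p = 0.00606) was lost without WT replicate 2 (adjusted p = 0.0543), with total counts (0.0664) and after removal of a trend with gene length (-0.04, adjusted p = 0.256). Aldoa was the most abundant member per length (192 FPKM in WT), while Aldoc, at 2.10 to 3.70 CPM in WT and 2.54 to 3.94 in Trem2_KO, was not called. Tpi1 (-0.07), Gpi1 (-0.01), Pgk1 (-0.03) and Pgam1 (0.04), given as log2 changes, overlapped between groups and were not called, with adjusted p-values from 0.148 to 0.903. After removal of that trend Pgam1 was called higher, at 0.13 (adjusted p = 0.0317).

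The last steps make and dispose of pyruvate. Pkm, the pyruvate kinase of most adult tissues, was at 700, 708 and 665 CPM in WT and 763, 748 and 710 CPM in Trem2_KO. WT replicate 2 and Trem2_KO replicate 3 nearly touched, and the rise of 0.10 (SE 0.0285, adjusted p = 0.00548) was lost without WT replicate 3, Trem2_KO replicate 1 or Trem2_KO replicate 2 (adjusted p 0.0517 to 0.0691). Pkm also shares 15.3% of its exon bases with Gm49759 on the same strand, which was counted 279 to 363 times in WT libraries and 410 to 513 times in Trem2_KO libraries, so the split of reads between them is uncertain. Ldha, which turns pyruvate into lactate, was at 380, 389 and 367 CPM in WT and 382, 367 and 363 CPM in Trem2_KO. The Ldha groups overlapped and it was not called (-0.03, SE 0.0303, adjusted p = 0.507). Slc16a3 (MCT4), which exports lactate, had all knockout libraries (18 to 18.4 CPM) above all WT libraries (16.1 to 17.5 CPM) but was not called (0.14, adjusted p = 0.267). Pdk1, a kinase that holds back pyruvate dehydrogenase, was at 34.4, 30.2 and 27.8 CPM in WT and 37.6, 31.9 and 37.8 CPM in Trem2_KO. These ranges overlapped, and its rise of 0.22 (SE 0.0744, adjusted p = 0.0231) was lost without WT replicate 2 or 3 or Trem2_KO replicate 1 or 3 (adjusted p 0.0885 to 0.167).

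Gapdh, a glycolytic enzyme often used as a reference gene, stood apart from the rest because of 1 library. It was at 11.4, 10.8 and 10.5 CPM in WT and 48.4, 12.1 and 10.3 CPM in Trem2_KO (chromosome 6, 125161715 to 125166467). Trem2_KO replicate 1 was 4.01 times the highest other library, and the other 5 libraries lay together. The log2 change of 1.12 (SE 0.791) was not called (adjusted p = 0.385), and without that library it was 0.04 (adjusted p = 0.86). When every gene was given a coefficient of variation of 0.1 or 0.2, Gapdh was called higher (adjusted p = 1.89e-13 and 0.000658), with the same single library high. Of 9822 genes with a mean of at least 5 CPM, Gapdh was the only one at 3 or more times every other library in any of the 6 libraries. Its level was also low for a glycolytic enzyme, 2.63 FPKM in WT, the 29th of the 36 members. Of the 50-base words of its transcript, 94.4% also occur in 84 annotated pseudogene copies, to which 211 to 274 reads per library were assigned against 164 to 838 for Gapdh itself. How the counting treated reads that match several genes is not known, so the level of Gapdh is uncertain in every library. With the copies' reads added, a setting chosen after the data were seen, the log2 change was 0.44 (adjusted p = 0.556).

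**Figure D3:**
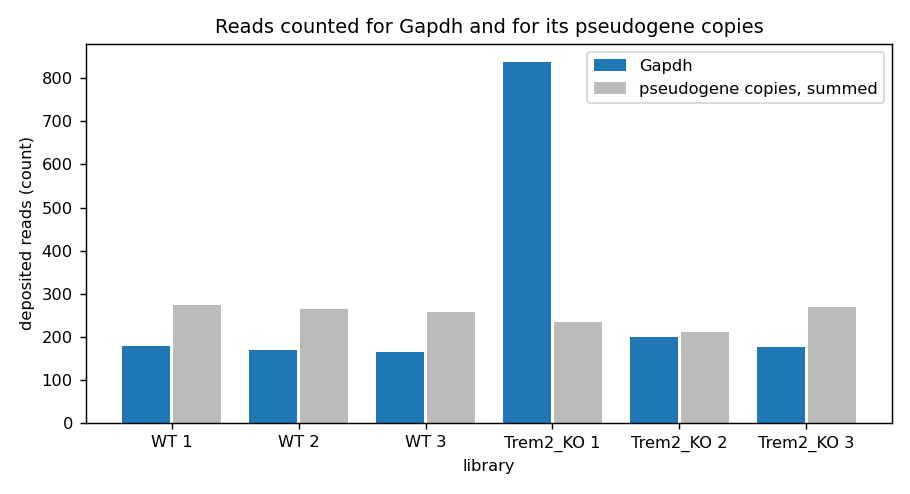
Deposited reads per library counted for Gapdh (blue) and summed over its pseudogene copies (grey), with libraries on the x axis. Gapdh held 164 to 199 reads in 5 libraries and 838 in Trem2_KO replicate 1, while the copies held 211 to 274 in all 6.

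Other members with pseudogene copies were Pgk1, Eno1, Bnip3, Gpi1, Pgam1, Pkm, Higd1a, Bnip3l and Ldha. The copies held at most 1.23% of the reads of a member and its copies together, except for Bnip3l at 6.08%. Adding them changed none of these genes' calls. Of the 50-base words of the most shared coding transcript, 70.3% for Eno1 and 68.0% for Pgk1 also occur in the copies. For the others it was 24.9% (Ldha) to 47.8% (Bnip3). Reads that match several genes may be missing from both, so the assigned reads cannot show that these members were unaffected. Their levels beside other members are uncertain too. Only annotated pseudogenes were counted as copies, so the protein-coding Eno1b (1344 reads in all) was left out for Eno1.

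**Figure D4:**
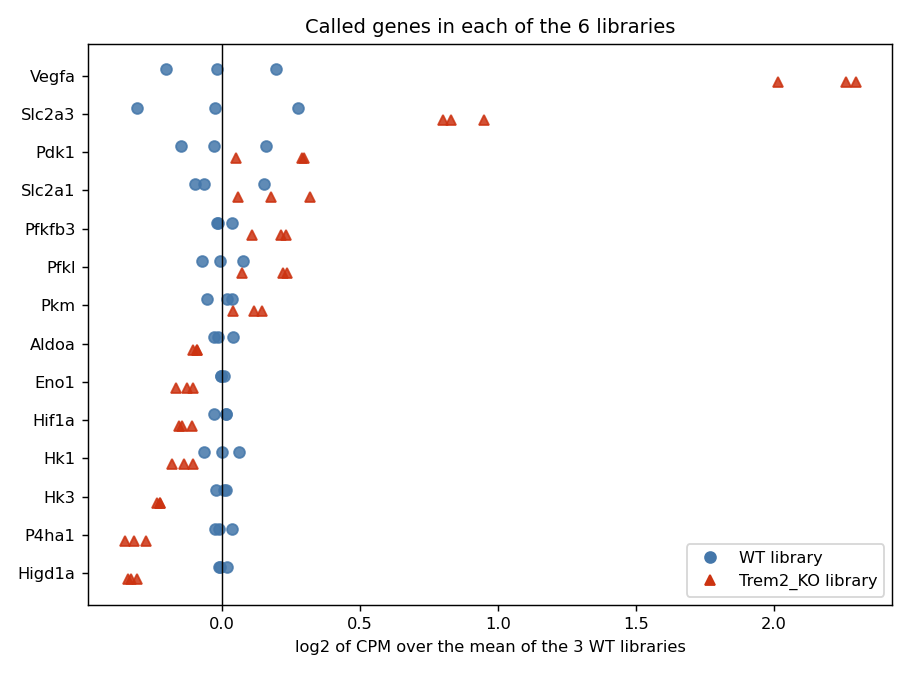
The 14 called genes in each library, as log2 of CPM over the mean of the 3 WT libraries, with WT as blue circles and Trem2_KO as red triangles. Vegfa and Slc2a3 lie far to the right in all 3 knockout libraries, and Pfkl, Slc2a1 and Pdk1 are the called genes whose groups overlap.

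Hif1a itself (chromosome 12, 73901375 to 73947530) was at 69.1, 69.0 and 67.0 CPM in WT and 61.8, 61.4 and 63.4 CPM in Trem2_KO. All knockout libraries were lower, but the fall of 0.14 (SE 0.0498, adjusted p = 0.0312) was lost without WT replicate 1 or 2 or Trem2_KO replicate 1 or 2 (adjusted p 0.077 to 0.103). The prolyl hydroxylase Egln1, which marks HIF-1 alpha for degradation and is a HIF target, was not called (56.2 to 61.2 CPM in WT, 55.6 to 63.8 in Trem2_KO, adjusted p = 0.989). Its paralog Egln3 was at 0.0638 to 0.51 CPM in WT and 0.118 to 0.182 in Trem2_KO, at or near the floor, and was not tested.

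Vegfa, the growth factor that drives vessel growth, had the largest change of the tested members. Vegfa (ENSMUSG00000023951, chromosome 17, 46016993 to 46032369) was at 1.40, 1.85 and 1.60 CPM in WT and 7.74, 7.94 and 6.52 CPM in Trem2_KO. The lowest knockout library was well above the highest WT library, a rise of 2.19 on the log2 scale (SE 0.193, 4.56-fold, adjusted p = 1.02e-13). Its level stayed low per length, 0.376 ± 0.0522 FPKM in WT and 1.72 ± 0.178 in Trem2_KO (SD, n = 3). Vegfa lies 2.31 Mb from Trem2, and of 144 tested genes within 10 Mb of Trem2 66 were called (45.8%), against 30.2% of all others; its part in the Vegfa result was not tested. In the same libraries 10 of 12 endothelial markers were called higher, and their part in the rise of Vegfa was not tested.

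Hydroxylation of collagen was represented by P4ha1 and P4ha2, the catalytic subunits of prolyl 4-hydroxylase. P4ha1 (ENSMUSG00000019916, chromosome 10, 59323296 to 59373304) was at 328, 317 and 313 CPM in WT and 264, 256 and 250 CPM in Trem2_KO. The groups were far apart for their spread, a fall of 0.32 (SE 0.0317, adjusted p = 8.1e-12). P4ha2 also lay lower in every knockout library (16 to 16.5 against 17.1 to 20.6 CPM) but was not called (-0.17, adjusted p = 0.175). Per length P4ha1 was by far the more abundant, at 77.4 FPKM in WT and 62.1 in Trem2_KO, against 2.94 and 2.61 for P4ha2. Higd1a, a hypoxia-induced protein of the inner mitochondrial membrane (chromosome 9, 121848563 to 121858362), was at 14.5, 14.7 and 14.5 CPM in WT and 11.6, 11.8 and 11.5 CPM in Trem2_KO. Its libraries were separate and tight, a fall of 0.33 (SE 0.103, adjusted p = 0.012). An antisense gene covers 22.5% of the exon bases of Higd1a with 10 reads in all. The calls of P4ha1 and Higd1a were lost when every gene was given a coefficient of variation of 0.1 or 0.2. Higd1a was also not called at an adjusted p under 0.01.

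**Figure D5:**
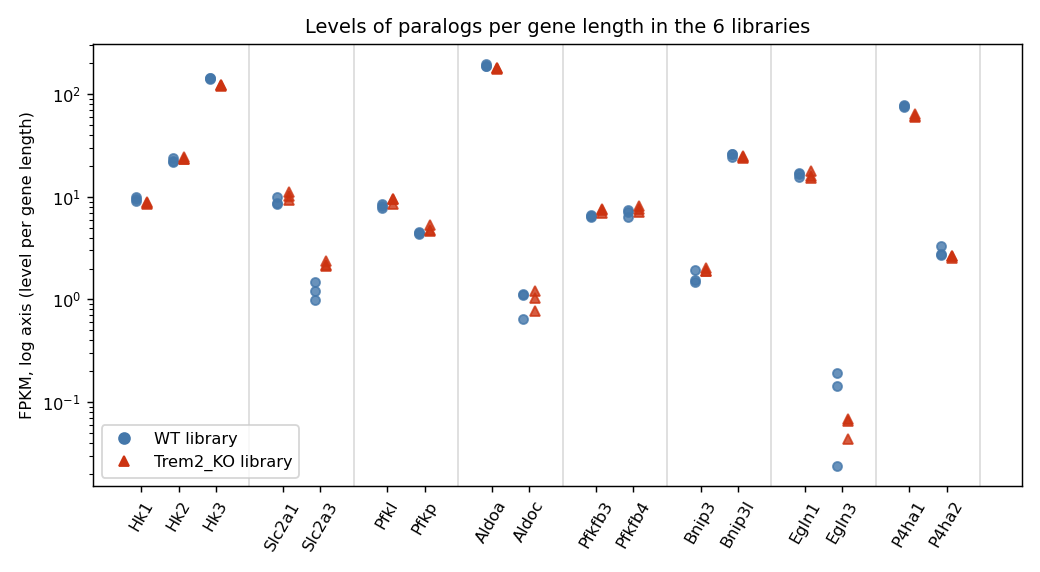
FPKM on a log axis for paralogs side by side, each point a library, WT as blue circles and Trem2_KO as red triangles. Hk3, Aldoa, Bnip3l, Egln1 and P4ha1 were the more abundant of their families, and Slc2a3 came closer to Slc2a1 in Trem2_KO.

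The other HIF targets were not called. Ankrd37, an ankyrin repeat protein, was at 0.319 to 0.511 CPM in WT and 0.646 to 1.15 in Trem2_KO without overlap, on 5 to 8 and 11 to 20 reads, a log2 change of 1.09 (SE 0.478, adjusted p = 0.0774); 22.7% of its exon bases lie opposite Lrp2bp. The mitophagy receptors Bnip3 (0.23) and Bnip3l (-0.06), the vasodilator peptide Adm (-0.08), the endoplasmic reticulum oxidase Ero1l (-0.05), the histone demethylase Kdm3a (0.08) and the stress gene Ndrg1 (0.32), given as log2 changes, overlapped between groups, with adjusted p-values from 0.235 to 0.689. Mxi1, an antagonist of Myc, was lower in every knockout library (52.7 to 58.5 against 58.7 to 61.7 CPM) but was not called (-0.09, adjusted p = 0.206). The 12 tested HIF targets other than Vegfa had a median log2 change of -0.05, 0 called higher and 2 lower. Of all tested genes 15.3% were called higher and 15.1% lower.

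The rest of the pathway was read from lists of other genes. Beside the counts of each list stand the shares over all 13776 tested genes, 15.3% called higher and 15.1% lower (30.3% in all). Because members and lists were chosen with earlier results of these data known, a count above these shares is a description only. Of 14 tested oxygen-sensing genes and HIF partners 6 were called higher and 5 lower (15 listed; median 0.11). Cited2, which competes with HIF-1 for its coactivators, rose from 75.1 ± 1.65 to 109 ± 3.41 CPM (SD, n = 3), by 0.54 on the log2 scale (adjusted p = 1.18e-14). Hif3a rose by 2.43, from 0.404 to 2.21 CPM, and Epas1, the HIF-2 alpha gene, by 0.42, from 21.8 to 29.2 CPM. The coactivators Ep300 and Crebbp rose by 0.23 and 0.19. Among the lower genes were the ubiquitin ligase Siah2 and subunits of ubiquitin ligase complexes. Siah2 fell by 0.45 and Eloc by 0.22, and both kept their calls without any single library. Elob (-0.16), Rbx1 (-0.16) and Cul2 (-0.18) lost theirs in 1 to 4 of the 6 leave-one-out fits: Elob without Trem2_KO replicate 2 (adjusted p = 0.111), Rbx1 without WT replicate 1 or Trem2_KO replicate 1 or 2 (0.0523 to 0.0833), and Cul2 without WT replicate 1 or 2 or Trem2_KO replicate 1 or 2 (0.115 to 0.131).

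Of 28 tested other hypoxia-responsive genes 11 were called higher and 3 lower (37 listed; median 0.14). Ddit4, a stress-induced inhibitor of mTORC1, rose from 42.4 ± 1.24 to 259 ± 19.3 CPM (SD, n = 3), by 2.61 on the log2 scale (adjusted p = 3.28e-33). The chemokine receptor Cxcr4 rose by 0.74, the annexin Anxa2 by 0.37, the cyclin Ccng2 by 0.34 and the phosphatase Dusp1 by 0.29. Jmjd6 fell by 0.40 and P4hb, the other subunit of prolyl 4-hydroxylase, fell by 0.13, from 613 to 559 CPM. The fall of the mitochondrial Fam162a (0.27) was lost without WT replicate 2, Trem2_KO replicate 1 or Trem2_KO replicate 3 (adjusted p 0.0545 to 0.0764).

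Of 20 tested other glycolysis and lactate genes 4 were called higher and 2 lower (27 listed; median 0.16). The liver genes Slc2a2 and Fbp1 rose by 0.56 and 0.52, Fbp1 from 9.42 to 13.6 CPM. Of 13 hepatocyte markers 8 were called lower, 1 higher (Pck1, 0.42) and 4 were not called. The part of hepatocyte RNA in these rises was not tested. Slc16a1 (MCT1), a lactate transporter, rose by 1.11, from 1.79 to 3.85 CPM. Slc2a6 fell by 0.40, and Ldhb, from 2.89 to 1.75 CPM, fell by 0.72, a call lost without WT replicate 3 or Trem2_KO replicate 2 (adjusted p 0.073 to 0.0737).

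At the entry of pyruvate into mitochondria 3 of 13 genes were called higher and 3 lower (median -0.06). Pyruvate carboxylase, Pcx, rose by 0.81, from 8.72 to 15.3 CPM, and the pyruvate carrier Mpc2 fell by 0.34, from 38.7 to 30.5 CPM. The kinase Pdk4 (0.40), the phosphatase Pdp2 (0.35) and the dehydrogenase subunits Dlat (-0.18) and Dld (-0.14) were called and lost the call in 1 to 4 leave-one-out fits. Pdk4 lost it without WT replicate 1 or 3 or Trem2_KO replicate 1 (adjusted p 0.0822 to 0.138), Pdp2 without WT replicate 1 or 3 or Trem2_KO replicate 1 or 2 (0.0703 to 0.24). Dlat lost it without WT replicate 1 (0.0628), and Dld without WT replicate 2 or any 1 of the Trem2_KO libraries (0.0516 to 0.185).

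The pentose phosphate branch, which makes NADPH and ribose from glucose 6-phosphate, had 4 of 8 genes called lower and 0 higher (median -0.10). G6pdx, its entry enzyme, went from 221 ± 1.80 to 199 ± 4.71 CPM (SD, n = 3), a fall of 0.15, and Taldo1 fell by 0.12. Pgd (-0.09) lost its call without WT replicate 2 or Trem2_KO replicate 2 (adjusted p 0.0786 to 0.108), and Pgls (-0.16) without WT replicate 1 or 2 or Trem2_KO replicate 1 or 2 (adjusted p 0.0638 to 0.304).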

How the data were processed

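Bulk RNA-seq of sorted Kupffer cells was deposited as counts and FPKM. Total RNA went into Illumina TruSeq libraries, per the labels. The submitters' processing notes name the builds GRCm38 and mm10, the aligner HISAT2 (2.0.5), the counter featureCounts (1.5.0-p3), and DESeq2 (1.16.1). The strand setting and the rule for reads that match several genes: not given in the sources used here. The authors' deposited counts are whole reads per gene, not normalized. The deposited FPKM values equal count over gene length and over 1 constant per library, and were used to compare levels between genes.

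All 6 libraries were fitted in R 4.3.3 with edgeR 4.0.16 (filterByExpr, TMM, quasi-likelihood test, genotype as the only term), and a gene was called where its p, adjusted by Benjamini-Hochberg over 13776 tested genes, was under 0.05. The estimated biological coefficient of variation was 0.0378. Nothing in the labels ties a library to its own mouse; the p-values therefore reflect spread between these samples only, and that spread may be technical. Libraries of 1 group differed beyond sampling noise (chi-square per degree of freedom, 1.98 to 2.90). That value cannot tell separate mice from separate preparations of the same RNA. Each library was counted as 1 sample without knowing which of these applies. Limits from counts cover counting error only.

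Named genes are all 36 members and, from each added list, up to 5 called genes by smallest p in each direction. Not every gene that this rule selects is reported here. Members and lists were chosen with earlier results of these data known. Whether replicate numbers pair the samples is not known, and the main fit used no pairing. Alternatives were other scalings, filters, tools (DESeq2 1.42.0, limma 3.58.1) and spreads, removal of a gene length trend, a replicate block, and leaving out each library; 2 more were added after the data were seen (pseudogene reads added, Gapdh left out). Columns of other samples were not present in the tables.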

Additional observations from a re-analysis of the deposited data

How the results depend on the processing

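All 14 called members kept their sign in every setting run, and 6 (Vegfa, Slc2a3, P4ha1, Hk3, Eno1 and Higd1a) kept their call without any single library; DESeq2 called 10 members and 3096 genes, and did not call Hk1, Hif1a, Slc2a1 and Pdk1. The Slc2a1 call was also lost with limma-voom and with no filter. Leaving out 1 library gave 3377 to 3909 called genes, 3 to 6 members higher and 5 to 6 lower, 0 to 2 enzymes higher and 3 to 4 lower, 1 HIF target higher and 2 lower. It gave an enzyme median of -0.03 to 0.02, a HIF target median of -0.088 to 0.017 and a difference of -0.082 to 0.050; the cause was not tested. Same-numbered libraries had r of -0.0079, 0.0031 and 0.036, beside -0.026 to 0.023 for libraries of different number. These values do not show pairing and cannot exclude it. The difference of group medians ran alike by number: -0.0692 and -0.0662, -0.0062 and -0.0098, 0.0161 and 0.0184 (WT and Trem2_KO replicates 1, 2 and 3). With the replicate block 4230 genes were called and members stayed at 7 higher and 7 lower.

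With total counts, which moved the median of all genes to 0.03 and made 61.2% of calls higher against 50.3%, 4 members and 2 enzymes were called lower (Aldoa, Hk1 and Hif1a lost their calls), and Pfkp was called higher. On log2(FPKM + 1), 2 members and 0 enzymes were called higher; on log2(FPKM + 0.1), 3 members, 0 enzymes and 2 HIF targets (Vegfa and Ankrd37) were. Without the filter, log2(FPKM + 1) called 2094 genes, 2 members and 0 enzymes higher and 2 enzymes lower. With the length trend removed the HIF target median was 0.016 and the difference 0.0024, and 0.014 and 0.000748 with the replicate block as well; Aldoa, Pfkfb3 and Pdk1 lost their calls in both, Pfkl with the block, and Pgam1 was called higher (0.133 in both). At a coefficient of variation fixed at 0.1 or 0.2, 1487 or 371 genes, 3 members and 1 enzyme higher, and 0 members, enzymes or HIF targets lower were called; the enzyme was Gapdh, high in Trem2_KO replicate 1 alone, while Pfkl and Pkm lost their calls; 63.1% and 72.2% of those calls were higher. At an adjusted p under 0.01, 4 members were higher and 4 lower, 1 enzyme higher and 1 HIF target lower. Without members near Trem2, 0 HIF targets were higher. With transporters and regulators among the enzymes, 6 were higher, the median was 0.066 and the difference -0.117.

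The sign reversed in 8 genes, none of them called in the main setting. Egln1 was at 0.00061 (DESeq2 size factors), 0.029 (total counts), 0.0034 (stricter filter), 0.0023 (protein-coding genes), 0.00054 (DESeq2), 0.030 (length trend removed) and 0.029 (with the block). Ldha was at 0.00070 (total counts), 0.0136 (length trend removed) and 0.0135 (with the block), and Pgk1 at 0.0042, 0.046 and 0.047. Gpi1 was at 0.023 with total counts. Pfkp was at -0.0018 and Adm at 0.019 with the length trend removed, and at -0.0033 and 0.0143 with the block. Without single libraries Egln1 ran from -0.061 to 0.039, Gpi1 from -0.034 to 0.044, Pgk1 from -0.093 to 0.0136, Ero1l from -0.112 to 0.045, Adm from -0.220 to 0.063 and Aldoc from -0.156 to 0.220. Depth limits Egln3 and Ankrd37, read 1 to 20 times per library.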

Other observations

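Ratios of a library to the highest other library for genes with a mean of at least 5 CPM were 4.01 for Gapdh in Trem2_KO replicate 1, then 2.74 for Rpl34-ps1 in WT replicate 1, and at most 2.002 for any other gene.

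Eno1b, a gene that shares sequence with Eno1, was counted 181 to 220 times in WT and 241 to 250 times in Trem2_KO libraries, against 8436 to 8823 for Eno1. The Eno1b reads were not part of the setting in which pseudogene reads were added.

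The summed level of the 6 transporters and regulators was 167.6 to 173.7 CPM in WT and 192.7 to 208.1 CPM in Trem2_KO, without overlap. That of the 14 HIF targets was 690.7 to 694.5 and 624.3 to 629.3 CPM, also without overlap and carried largely by P4ha1. The 15 enzymes summed to 3606 to 3737 and 3497 to 3644 CPM, with overlap.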
